A study of Mus musculus with 2 samples.

Results

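The fatty acid oxidation genes examined here are 32 of the 32285 genes in the count table, taken by gene symbol from a list of the pathway that sets no threshold on measured values, and all 32 were found. They cover the activation of fatty acids, their entry into mitochondria, the oxidation spiral of mitochondria and of peroxisomes, electron transfer to the respiratory chain, and the regulators of these steps. They were followed in cells of the mouse dentate gyrus, where new granule neurons are made from hippocampal stem cells into adult life. Tissue came from mice at postnatal day 30 of 2 genotypes, conditional knockouts (cKO; Nestin-Cre Tg, Phf2flox/flox) and controls (Nestin-Cre Tg, Phf2+/+). Both genotypes carry the same Nestin-Cre transgene, which acts in neural progenitors and the cells that descend from them, so that vessels, meninges and microglia need not carry the deletion. The 4 mice of each genotype entered 1 library of droplet single-cell RNA sequencing, in which each captured transcript receives a unique molecular identifier (UMI) near its 3′ end. Barcodes end in suffix 1 or 2, and the labels tie neither suffix to a genotype. The suffixes are called library 1 and library 2, every pair of values below is in that order, and comparisons were made between cell classes and not between genotypes.

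In the oxidation spiral, an acyl-CoA dehydrogenase, an enoyl-CoA hydratase, a hydroxyacyl-CoA dehydrogenase and a thiolase together shorten a fatty acid and release acetyl-CoA. Mitochondria run it on fatty acids that CPT1 has loaded onto carnitine, and the electrons pass through electron transfer flavoprotein to the respiratory chain. Peroxisomes run it with their own enzymes, chiefly on very long and branched chains, and their first step passes electrons to oxygen. Astrocytes are held to be the main site of fatty acid oxidation in the brain, and stem cells of the adult hippocampus are known to use it, with malonyl-CoA, the inhibitor of CPT1, as a brake.

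Library 1 gave 8011 cells with a median of 8081 UMIs and library 2 gave 8108 cells with a median of 7225. Clusters were named from marker genes that contain no member, and 18 classes with at least 20 cells in each library are reported, each called "-like" because the names rest on these markers. The classes of the neurogenic lineage are RGL-like (radial glia-like stem cells, 440 and 657 cells), Cycling-like (288 and 285), nIPC-like (neurogenic intermediate progenitors, 322 and 273), Neuroblast-like (641 and 669) and Granule neuron-like cells (49 and 106), and Astrocyte-like cells numbered 577 and 690. The RGL-like cluster also led with Hopx, Slc1a3 and Hes5, which astroglia share, and 7 of its 12 markers were found. The nIPC-like cluster scored 2.77 for nIPC and 2.53 for Neuroblast markers and led with Eomes and Tac2 beside Sox11, Igfbpl1 and Dcx. Neuroblast markers summed to 12473 and 12387 CPM in Neuroblast-like and 12285 and 12409 CPM in nIPC-like cells, so this sum does not set the 2 classes apart. The score of these markers was 3.07 and 2.61 in the Neuroblast-like clusters, against the 2.53 of the nIPC-like cluster. A further 8 clusters stayed unnamed, holding 10.3% and 8.90% of cells. Choroid plexus-like cells numbered 28 in library 1 and 331 in library 2, and came from 2 clusters that the libraries fill unequally, with 27 and 223 cells in the one and 1 and 108 in the other, whose median cell held 43886 UMIs against 6032.5 in the first. The libraries of this class are therefore different mixtures of cells. Across all cells, 22 barcodes occurred in both libraries, which is 0.275% and 0.271% of cells. Levels are CPM, the UMIs of a gene scaled to a common total over all genes of the class in a library, and their exact Poisson intervals cover counting error only.

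Promoter windows of 4 members are shown because the results turn on them, as RefSeq sequence of GRCm38.p6. Hadha and Hadhb, the genes for the α and β subunits of the mitochondrial trifunctional protein, lie head to head on chromosome 5. In RefSeq their start sites are 273 bases apart, and their promoter windows overlap. The GENCODE annotation places them closer, with the 5′ end of Hadha at 30155162, inside the shared window, and that of Hadhb at 30155248. Acsl6 had the largest fold of any member in astrocytes over stem cells, and Cpt1a carries the step that controls entry into mitochondria. The window shared by the Hadha and Hadhb promoters is chr5:30155003-30155230 on the plus strand, with its GC box (GGGCGG) in capitals. The Acsl6 promoter is chr11:54303574-54303873 and that of Cpt1a chr19:3323051-3323350, both on the plus strand, from 250 bases before to 50 after the start site. In these the capitals mark the nuclear receptor half-site AGGTCA, here as its reverse complement TGACCT.
Hadha and Hadhb shared window: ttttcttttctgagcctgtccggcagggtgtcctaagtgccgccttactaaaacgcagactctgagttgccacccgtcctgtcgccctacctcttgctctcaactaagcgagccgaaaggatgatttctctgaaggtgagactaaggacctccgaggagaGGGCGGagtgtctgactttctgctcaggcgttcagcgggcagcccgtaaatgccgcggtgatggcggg
Acsl6: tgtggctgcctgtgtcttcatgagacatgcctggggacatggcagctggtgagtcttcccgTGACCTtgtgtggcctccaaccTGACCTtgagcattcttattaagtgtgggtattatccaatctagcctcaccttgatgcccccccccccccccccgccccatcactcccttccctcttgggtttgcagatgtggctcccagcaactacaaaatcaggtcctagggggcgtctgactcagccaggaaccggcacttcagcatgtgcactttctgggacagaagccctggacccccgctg
Cpt1a: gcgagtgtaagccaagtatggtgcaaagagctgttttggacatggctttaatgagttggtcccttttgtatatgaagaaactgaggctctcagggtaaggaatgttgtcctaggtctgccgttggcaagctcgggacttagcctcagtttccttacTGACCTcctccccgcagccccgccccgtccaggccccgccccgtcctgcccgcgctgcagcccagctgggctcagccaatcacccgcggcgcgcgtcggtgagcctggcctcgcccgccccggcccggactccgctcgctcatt
The half-sites begin at −189 and −167 of the Acsl6 start site and at −94 of the Cpt1a start site, both as in RefSeq. The GENCODE annotation places the 5′ end of Cpt1a at 3322334, before the printed window, which then lies within the gene.

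Promoters were found in RefSeq for 28 of the 32 members. The half-site AGGTCA, searched on both strands, was found in the promoters of 5 of them, Acadm, Acadvl, Acsl6, Cpt1a and Echs1, and in 16.3% of all 32851 promoters of 300 bases. The longer form TCAAGGTCA, known as a site of estrogen-related receptors, was in that of Acsl6 and in 0.423% of all promoters. The repeat AGGTCANAGGTCA, the form PPARα is known to bind, was in 0.0396% of all promoters and in no member's. GGGCGG was in the promoters of 20 members and in 35.7% of all. The longer forms contain the half-site, and the matches describe letters in a window and say nothing of binding.

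Across the 18 classes the activating enzymes divided the tissue between them. Acsl3, a long-chain acyl-CoA synthetase of the endoplasmic reticulum and lipid droplets, stood at 2191 and 2122 CPM in Astrocyte-like and 1498 and 1292 CPM in RGL-like cells. It was next highest in Committed oligodendrocyte-like cells (768 and 913 CPM) and lowest in Microglia-like cells (8.95 and 14.3 CPM), with 179.9 and 185 CPM in free RNA. Acsl6, the synthetase known for handling docosahexaenoic acid in brain, was at 706 and 673 CPM in Astrocyte-like cells, 185 and 177 CPM in RGL-like cells and at most 41.8 CPM in any other class. Acsbg1, the "bubblegum" synthetase of long and very long chains, was at 431 and 407 CPM and 233 and 226 CPM in the same classes. Acsl1, which serves oxidation in heart and fat, took the other side: 210.3 and 222 CPM in Pericyte-like and 189 and 139 CPM in Fibroblast-like cells, while Astrocyte-like cells held 4.89 and 4.03 CPM, below its 25.8 and 25.04 CPM in free RNA. Acsl4, which prefers arachidonic acid, was at 55.4 and 58.8 CPM in Microglia-like cells, and its intervals there overlapped those of Committed oligodendrocyte-like cells (31.2 and 62.6 CPM).

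As shares of the UMIs of these 5 synthetases, the classes differed as widely. Acsl3 held 65.5% and 65.9% in Astrocyte-like, 77.6% and 75.4% in RGL-like and 86.7% and 86.7% in Committed oligodendrocyte-like cells. Acsl1 held 71.0% and 70.3% in Pericyte-like and 49.3% and 50.6% in Smooth muscle-like cells, but 0.146% and 0.125% in Astrocyte-like cells. In Microglia-like cells Acsl4 held 48.3% and 45.5%, and Acsl1 39.5% and 37.4%. Transcripts of different genes may be captured unequally, so a share is compared between classes and not between genes. Acsl3 overlaps Utp14b on the same strand, and reads in the overlap could have been counted for either.

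**Figure D1:**
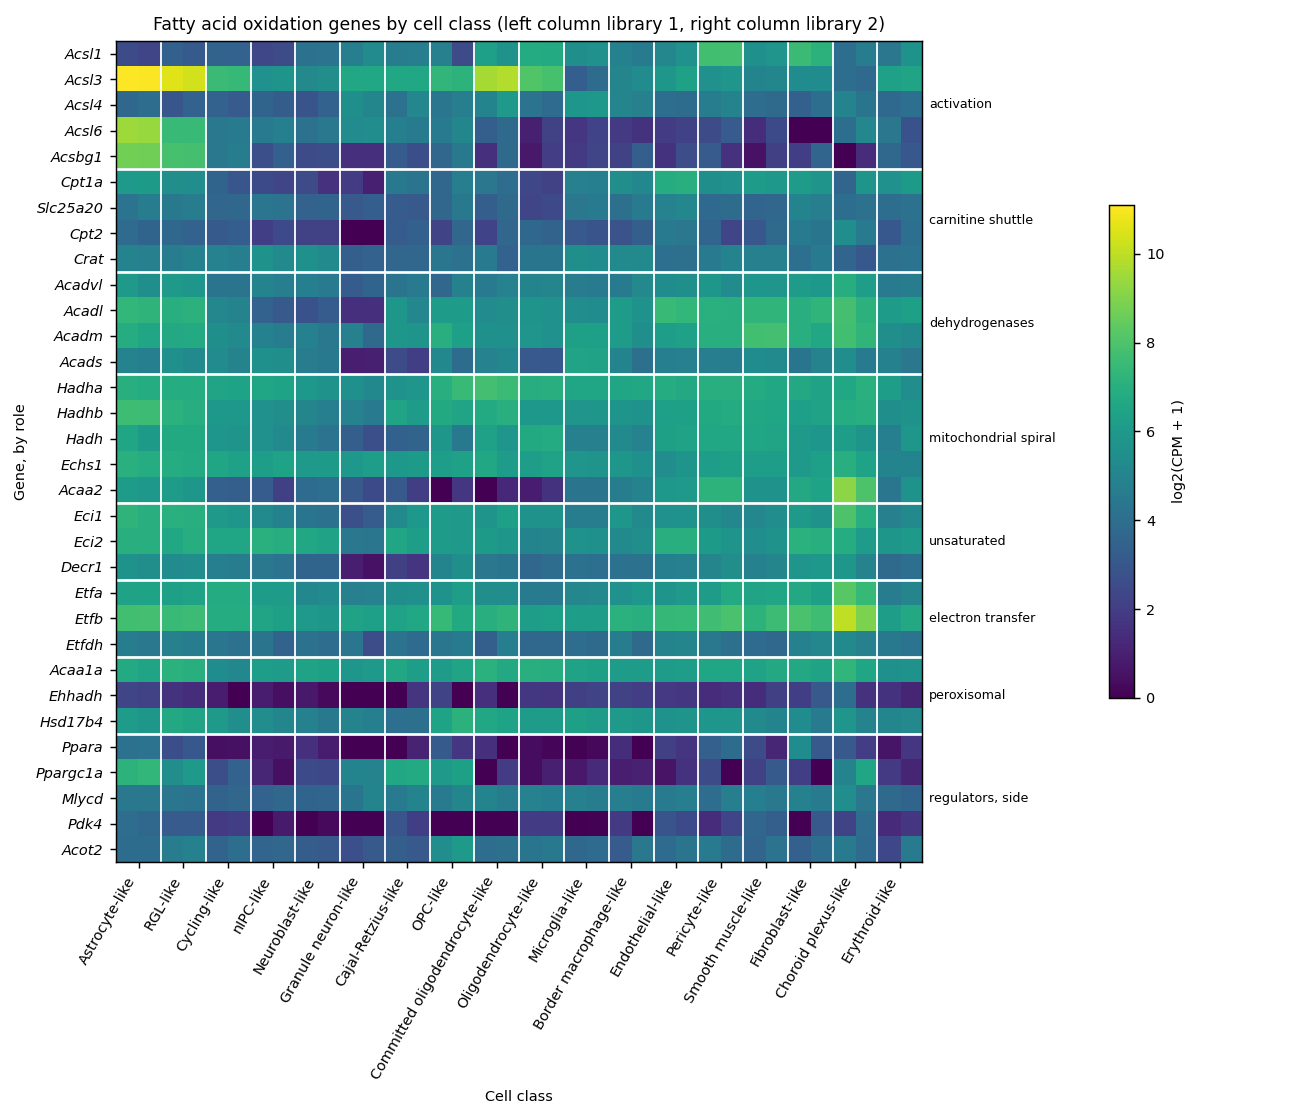
Levels of the 32 members (rows, grouped by role) in 18 cell classes (columns, library 1 left and library 2 right within each), as log2(CPM + 1). Acsl3, Acsl6 and Acsbg1 are brightest in Astrocyte-like and RGL-like cells. The Granule neuron-like columns are the darkest for many rows, including those of the acyl-CoA dehydrogenases, and other classes are darkest for the rest.

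Summed over its 4 members, the carnitine shuttle was highest in Endothelial-like cells (185 and 194 CPM), but the members did not share 1 highest class. Cpt1a, the liver-type carnitine palmitoyltransferase that controls entry into mitochondria, was highest in Endothelial-like cells at 118 CPM (95% exact Poisson interval 111 to 125) and 124 CPM (116 to 131). Smooth muscle-like cells followed (69.1 and 58.9 CPM), then Astrocyte-like cells (62.0 and 64.9 CPM), whose intervals overlapped those of smooth muscle. Granule neuron-like cells had 2.81 CPM (95% exact Poisson interval 0.579 to 8.20) and 0.939 CPM (0.114 to 3.39). Within the endothelium, Cpt1a stood at 122 and 129.9 CPM in the largest cluster, led by Slco1a4 and Slc2a1, and at 96.5 and 96.6 CPM in the second, led by Igfbp3 and Edn1. Slc25a20, the carrier that exchanges acylcarnitine for carnitine, ranged between 3.93 and 4.47 CPM in Oligodendrocyte-like and 29.7 and 33.7 CPM in Endothelial-like cells. Cpt2, which returns the chain to coenzyme A inside, was highest in Choroid plexus-like cells (42.0 and 23.6 CPM) and had 0 UMIs in Granule neuron-like cells, which allows up to 2.81 and 1.41 CPM. Crat, the carnitine acetyltransferase that buffers acetyl-CoA, was alone among the 32 in having its highest mean in nIPC-like cells (49.3 and 37.7 CPM), with Microglia-like cells level with them (44.7 and 41.2 CPM).

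The 4 acyl-CoA dehydrogenases, which differ in the chain length they prefer, did not share 1 order of classes. Acadvl, for very long chains, was highest in Choroid plexus-like cells (118 and 70.6 CPM). Acadl, for long chains, was at 229 and 139 CPM there, at 179 and 159.6 CPM in Endothelial-like and at 163 and 149 CPM in Astrocyte-like cells, without an order that both libraries share. Acadm, for medium chains, was highest in Smooth muscle-like cells (216 and 217 CPM), and Acads, for short chains, in Microglia-like cells at 89.7 and 84.1 CPM. The Acads intervals in microglia lay above those of the next class, nIPC-like cells (46.2 and 45.0 CPM). All 4 were lowest in Granule neuron-like cells, where Acads stood at 0.936 CPM (95% exact Poisson interval 0.0237 to 5.21) and 0.939 CPM (0.114 to 3.39) and Acadl at 1.87 and 1.88 CPM.

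Of the enzymes that complete the mitochondrial spiral, Hadhb and Echs1, the short-chain enoyl-CoA hydratase, were highest in Astrocyte-like cells, Hadhb at 198 and 193 CPM against 136 and 119.7 CPM in RGL-like cells. Hadha was highest in Committed oligodendrocyte-like cells (222 and 191 CPM) and Hadh, the dehydrogenase of shorter chains, in Oligodendrocyte-like cells (107 and 112 CPM), level with RGL-like cells (106 and 105 CPM). Acaa2, the mitochondrial thiolase, reached 569 and 253 CPM in Choroid plexus-like cells and 144 and 142 CPM in Pericyte-like cells. In the oligodendrocyte lineage it was near 0, with 0.843 and 2.11 CPM in Oligodendrocyte-like cells, although free RNA held 29.4 and 38.6 CPM. Of the enzymes for unsaturated chains, the isomerase Eci1 was highest in Choroid plexus-like cells (252 and 126 CPM), while the isomerase Eci2 and the reductase Decr1 had no class that was highest in both libraries.

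Choroid plexus-like cells also led electron transfer. Etfb, the β subunit of electron transfer flavoprotein, stood at 1043 and 477 CPM in Choroid plexus-like cells and at 209 and 238 CPM in the next, Pericyte-like cells. Etfa, the α subunit, was at 298 and 173 CPM and in Cycling-like cells, the next, at 112 and 114 CPM. In both genes library 1, with 28 choroid plexus cells, lay above library 2, with 331. Etfdh, which hands the electrons to ubiquinone, spread least of the 3, with its mean highest in Choroid plexus-like cells (38.2 and 27.8 CPM) and lowest in Oligodendrocyte-like cells (12.1 and 12.3 CPM). Etfb overlaps Gm45233 on the same strand.

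The peroxisomal enzymes followed another order. Hsd17b4, the D-bifunctional protein, was highest on average in OPC-like cells (85.8 and 138 CPM), whose libraries held 26 and 54 cells, and next in RGL-like cells (102 and 87.8 CPM). Acaa1a, the peroxisomal thiolase, was at 137 and 124 CPM in RGL-like cells and lowest in Cycling-like cells (41.4 and 35.3 CPM), a low that no other member had. Its near copy Acaa1b could share reads with it. Ehhadh, the L-bifunctional protein, held 343 UMIs in all 18 classes together and was detected in both libraries of 13.

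Among regulators, Ppargc1a, a coactivator of mitochondrial biogenesis, was highest in Astrocyte-like cells (143 and 160.4 CPM), then in Cajal-Retzius-like cells (95.7 and 109.9 CPM), and reached 0.281 and 0.994 CPM in Oligodendrocyte-like cells. Ppara, the nuclear receptor that fatty acids activate, was at 16.8 and 17.8 CPM in Astrocyte-like cells and at 41.0 and 7.50 CPM in Fibroblast-like cells, where 45 and 38 cells disagreed widely. Pdk4, the kinase that shuts pyruvate out of mitochondria, was at 14.7 and 12.3 CPM in Astrocyte-like and 11.8 and 9.16 CPM in Smooth muscle-like cells. Acot2, a mitochondrial acyl-CoA thioesterase with the close relative Acot1, was highest in OPC-like cells (42.9 and 64.0 CPM). Mlycd, which breaks down malonyl-CoA, varied little, with its mean lowest in Neuroblast-like cells (10.8 and 11.2 CPM) and highest in Choroid plexus-like cells (42.0 and 20.3 CPM). In all, 10 members had their highest mean in Choroid plexus-like cells, 6 of them in both libraries, and 7 in Astrocyte-like cells, 6 of them in both. The share of all genes that are highest in these classes was not computed, so the counts only describe the members. Estimated shares of free RNA were 46.2% and 38.4% in OPC-like and 34.3% and 28.6% in Fibroblast-like cells, against 2.27% and 2.63% in Choroid plexus-like and 4.63% and 3.21% in Astrocyte-like cells. Each share is a median over marker sets of other classes, which a class may partly express itself. In library 2 of OPC-like cells, astrocyte markers summed to 1624 CPM and microglia markers to 159 CPM. Acaa2, present in free RNA, ranked lower in OPC-like than in Oligodendrocyte-like cells, so the OPC-like shares may be too high.

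To set mitochondrial against peroxisomal steps, 18 members of mitochondria and 3 of peroxisomes (Acaa1a, Ehhadh, Hsd17b4) were summed, leaving out Eci2, Crat and Mlycd, which are known from more than 1 compartment. The mitochondrial sum was 1619 and 1472 CPM in Astrocyte-like, 1441 and 1425 CPM in RGL-like, 818 and 772 CPM in Cycling-like, 659.8 and 599 CPM in nIPC-like, 449.6 and 415 CPM in Neuroblast-like and 342 and 305 CPM in Granule neuron-like cells. Each step along the lineage lay below the one before it in both libraries. The peroxisomal sum was 183 and 150.1 CPM in Astrocyte-like, 241 and 213 CPM in RGL-like, 106 and 78.6 CPM in Cycling-like, 115 and 102 CPM in nIPC-like, 111 and 98.6 CPM in Neuroblast-like and 86.1 and 88.3 CPM in Granule neuron-like cells. The peroxisomal sum in CPM thus stood lower in astrocytes than in stem cells, and from Cycling-like to Granule neuron-like cells it differed little. Scaling to total counts, as CPM does, shifted all genes by a median of −0.34 in log2 in astrocytes over stem cells. With TMM scaling, Acaa1a did not pass there (−0.07 ± 0.09) and Hsd17b4 was lower by less (−0.26 ± 0.10). Its members did not move alike: Acaa1a was at 82.2 and 77.2 CPM in Neuroblast-like and 41.4 and 35.3 CPM in Cycling-like cells, and Hsd17b4 at 28.1 and 21.1 CPM in Neuroblast-like and 63.9 and 43.3 CPM in Cycling-like cells.

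The ratio of the sums followed from both. It was 8.84 and 9.81 in Astrocyte-like cells, against 5.99 and 6.68 in RGL-like cells, a difference of 0.56 in log2 in library 1 and 0.55 in library 2. In Cycling-like cells it was 7.71 and 9.81, in nIPC-like cells 5.76 and 5.86, in Neuroblast-like cells 4.05 and 4.21, and in Granule neuron-like cells 3.97 and 3.46. Neuroblast-like cells differed from nIPC-like cells by −0.51 and −0.48 in log2, and nIPC-like from RGL-like cells by −0.055 and −0.19. The highest ratio was 14.9 and 16.1, in Choroid plexus-like cells, and the 3.65 and 3.82 of Oligodendrocyte-like cells lay in the range of Granule neuron-like cells at the low end. No test was made on these sums, in which abundant members weigh most. With members weighed equally, as means of log2(CPM + 1), the mean difference was 0.078 for astrocytes over stem cells instead of 0.56. It was then −0.34 for nIPC-like and 0.25 for Cycling-like over RGL-like cells and −0.22 for Neuroblast-like over nIPC-like cells. How peroxisomal steps are counted moved the differences: with 19 other peroxisomal oxidation genes added, the mean difference in log2 was 0.24 for astrocytes over stem cells, 0.12 for nIPC-like over RGL-like cells and −0.065 for Neuroblast-like over nIPC-like cells. With Eci2, Crat and Mlycd counted as peroxisomal, Cycling-like over RGL-like cells turned to −0.086, from a mean of 0.46.

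**Figure D2:**
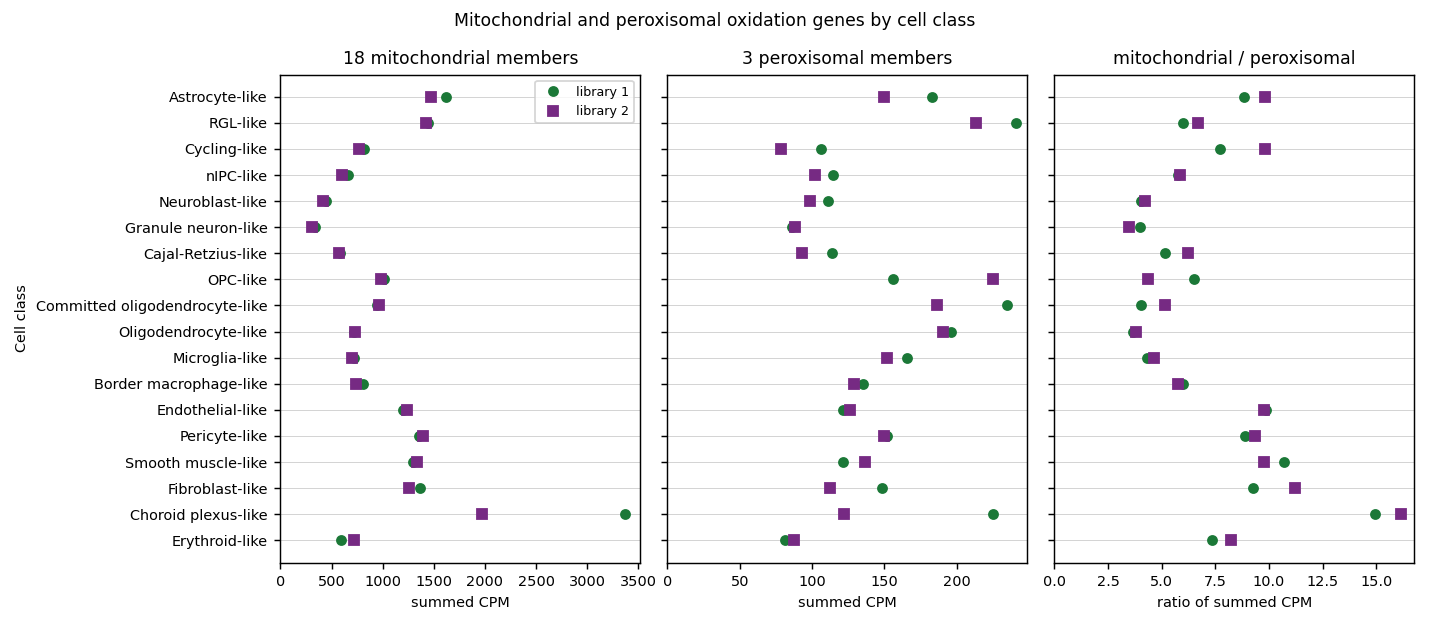
Summed levels of 18 mitochondrial members (left, CPM) and 3 peroxisomal members (middle, CPM) and their ratio (right) in 18 cell classes, with 1 point per library. The mitochondrial sum is lower at each step from RGL-like to Granule neuron-like cells, while Choroid plexus-like cells hold both the highest mitochondrial sum and the highest ratio.

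In astrocytes set against stem cells, most oxidation genes were higher with TMM scaling. Of the 32 members, 22 were higher in Astrocyte-like than in RGL-like cells, 2 were lower and 8 did not pass (edgeR's quasi-likelihood test on class sums, Benjamini-Hochberg adjusted p at most 0.05). Of the 12232 genes tested, 49.2% were called, 25.6% higher and 23.6% lower. The median log2 fold of the members was 0.45, and that of all genes tested −0.01. By these calls members of every step took part: 4 of 5 for activation, 2 of 4 for the carnitine shuttle, 2 of 4 dehydrogenases, 4 of 5 of the mitochondrial spiral, 3 of 3 for unsaturated chains and 2 of 3 for electron transfer. DESeq2 and total-count scaling both shared 9 of the higher calls, none of them for electron transfer. The 3 peroxisomal members split into 1 higher, 1 lower and 1 that did not pass.

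Acsl6 led these differences, at 706 and 673 CPM in Astrocyte-like against 185 and 177 CPM in RGL-like cells. Both astrocyte values lay far above both stem cell values, and the log2 fold was 2.25 ± 0.08, adjusted p = 4e-15 (SE, n = 2 libraries per class). Ppargc1a had 143 and 160.4 CPM against 43.4 and 61.9 CPM, again without overlap (1.85 ± 0.10, adjusted p = 3.6e-12). Ppara, with which PGC-1α, the product of Ppargc1a, is known to work, had 16.8 and 17.8 CPM against 5.32 and 7.33 CPM (1.75 ± 0.23, adjusted p = 1.5e-06), from 156 UMIs in astrocytes and 52 in stem cells. Acsbg1 stood at 431 and 407 CPM against 233 and 226 CPM (1.19 ± 0.08, adjusted p = 7.2e-11) and Acsl3 at 2191 and 2122 CPM against 1498 and 1292 CPM (0.95 ± 0.07, adjusted p = 5.5e-10). In each of these genes the classes did not overlap.

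Of the carnitine shuttle and mitochondrial spiral enzymes, Hadhb had the largest fold, at 198 and 193 CPM against 136 and 119.7 CPM (0.94 ± 0.09, adjusted p = 1.2e-08), with Cpt1a at 62.0 and 64.9 CPM against 44.3 and 42.0 CPM close behind (0.88 ± 0.12, adjusted p = 1.9e-06). Acadl differed by less, with 163 and 149 CPM against 123 and 141 CPM (0.56 ± 0.09, adjusted p = 3.3e-05). Its lowest astrocyte value lay just above its highest stem cell value. Eci2, at 128 and 123 CPM against 95.7 and 119 CPM (0.54 ± 0.10, adjusted p = 8e-05), and Etfb, at 216 and 218 CPM against 184 and 196 CPM (0.51 ± 0.08, adjusted p = 2.2e-05), also passed. Pdk4 had 14.7 and 12.3 CPM against 7.98 and 7.98 CPM (1.06 ± 0.23, adjusted p = 0.00056). Ehhadh, the peroxisomal member that was higher, rested on 34 UMIs in astrocytes and 15 in stem cells (1.31 ± 0.46, adjusted p = 0.0237). Lower in astrocytes were Hsd17b4, at 69.6 and 57.2 CPM against 102 and 87.8 CPM (−0.26 ± 0.10, adjusted p = 0.0349), and Acot2, at 14.0 and 14.2 CPM against 25.4 and 28.7 CPM (−0.62 ± 0.17, adjusted p = 0.0044). The remaining higher calls ran from Acadm (0.31 ± 0.10) to Acsl4 (0.95 ± 0.22). In between lay Acaa2, Etfa, Hadha, Eci1, Echs1, Crat, Mlycd and Decr1. The 8 that did not pass ran from Acsl1 (−0.62 ± 0.30) through Acads, Hadh, Acaa1a, Etfdh, Acadvl and Slc25a20 to Cpt2 (0.44 ± 0.21).

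These counts depend on scaling. DESeq2 called 11 higher and 0 lower, and 15 higher and 0 lower at an unadjusted p under 0.05. Scaling to total counts, as CPM does, shifted all genes by a median of −0.34 in log2. It gave 11 higher and 6 lower calls, and higher calls were then 64.7% of the members' calls, against 91.7% with TMM. Acadm and Acaa2, called higher, stood at −0.018 and −0.00096 with that scaling. Called higher all 3 ways were 9 genes, Acsl3, Acsl6, Acsbg1, Cpt1a, Acadl, Hadhb, Eci2, Ppara and Ppargc1a. The call of Hsd17b4 was lost with DESeq2, with the shallow astrocyte-scoring cluster counted, without the library block, in 1 fit over all classes and with a mitochondrial limit of 10%, and that of Acot2 with DESeq2 and that limit. Mitochondrial genes took a median 8.74% and 10.4% of UMIs per Astrocyte-like cell, against 6.15% and 7.28% per RGL-like cell. Cells held a median of 7069 and 6190 UMIs in astrocytes, against 7552 and 6873 in stem cells. The 10 microglia markers together came to 383 and 182 CPM in astrocytes and 231 and 192 CPM in stem cells. The part of these in the differences was not tested.

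**Figure D3:**
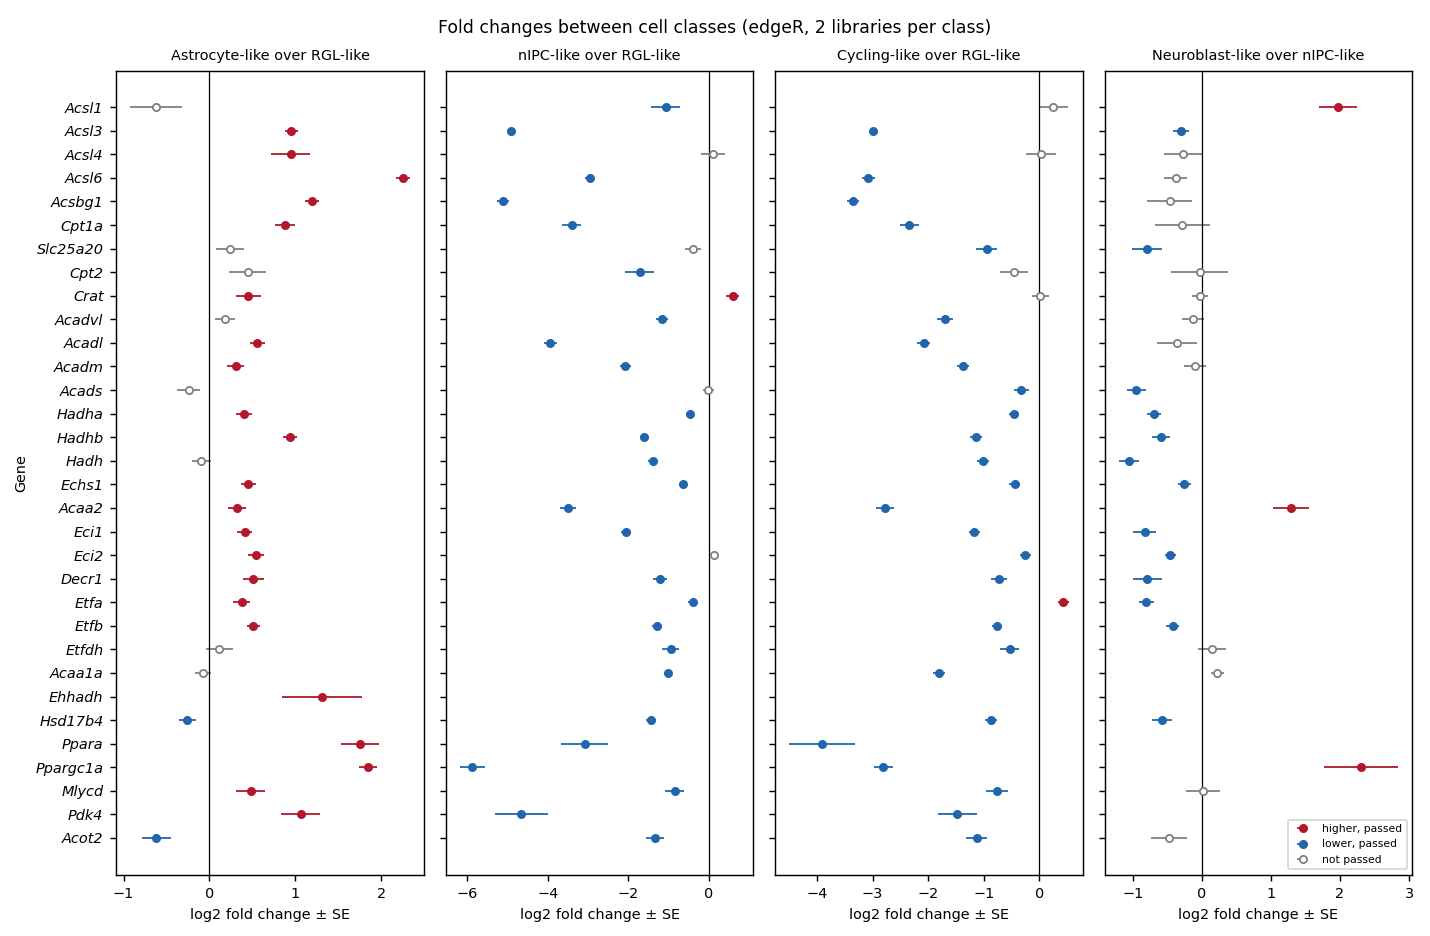
Log2 fold changes of the members (rows) in 4 comparisons between cell classes, with SE as bars, from edgeR on 2 libraries per class; filled red and blue points passed as higher and lower, open points did not pass, and genes too low to test have no point. Most points lie right of 0 in astrocytes over stem cells and left of 0 in nIPC-like and Cycling-like over stem cells, where the fold of Pdk4 in nIPC-like cells rests on 2 UMIs.

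Of the other 75 genes of the pathway, 66 were tested in this comparison, and 23 were higher (34.8%) and 6 lower (9.09%) in astrocytes. Of all genes tested, 25.6% were higher and 23.6% lower. Peroxisomal oxidation had 7 higher and 2 lower of 14 tested. Abcd2, a peroxisomal transporter of very long chains, stood at 124 and 119 CPM against 31.3 and 27.4 CPM in RGL-like cells (2.38 ± 0.11, adjusted p = 2.7e-13), and Crot, which exports shortened chains from peroxisomes as carnitine esters, at 212 and 182 CPM against 81.2 and 92.1 CPM (1.496 ± 0.10, adjusted p = 5.9e-11). Of 15 peroxisome assembly genes 2 were higher, Pex13 and Pex16, a share of 13.3%, below that of all genes. The CPM values of both overlapped between the classes. Of 5 ketone body genes 3 were higher, among them Oxct1, which lets cells burn ketone bodies (202 and 189.9 CPM against 109.9 and 98.5 CPM; 1.24 ± 0.09), and the monocarboxylate transporter Slc16a1 (50.8 and 43.9 CPM against 26.3 and 20.9 CPM; 1.33 ± 0.14). Of 8 genes of malonyl-CoA and lipid droplets 4 were higher, led by the triglyceride lipase Pnpla2 (1.39 ± 0.13). Thrsp, known in mouse hippocampal stem cells for limiting malonyl-CoA, was lower, at 902 and 809.6 CPM against 1607 and 1362 CPM (−0.47 ± 0.07). Among 10 regulators tested 4 were higher and 2 lower, with the estrogen-related receptor gene Esrra at 26.8 and 28.6 CPM against 10.3 and 7.98 CPM (1.94 ± 0.19, adjusted p = 3.2e-08) and the kinase Pdk2 at 1.17 ± 0.12. Of 14 other mitochondrial acyl-CoA enzymes tested 3 were higher, led by the carrier Slc25a29 (1.63 ± 0.21). This share of 21.4% lay below that of all genes.

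From stem cells to neurogenic progenitors nearly all members were lower. In nIPC-like cells 26 members were lower than in RGL-like cells, 1 was higher, 4 did not pass and Ehhadh was too low to test. Of the 12169 genes tested, 69.3% were called, 34.0% higher and 35.3% lower, and the median log2 fold was −1.33 over the members and −0.01 over all genes. All 5 members of the mitochondrial spiral, all 3 of electron transfer and all 5 regulators and side enzymes were lower, as were 4 of 5 activating enzymes, 3 of 4 dehydrogenases, 2 of 4 of the carnitine shuttle, 2 of 3 for unsaturated chains and both peroxisomal members that could be tested.

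Acsl3 fell to 48.3 and 52.0 CPM in nIPC-like cells, against 1498 and 1292 CPM in RGL-like cells, a log2 fold of −4.93 ± 0.09 (SE, n = 2 libraries per class). It remained above the level that the estimated free RNA share of 2.28% and 2.85% brings, since free RNA held 179.9 and 185 CPM of it. Acsbg1 was at 5.45 and 9.51 CPM against 233 and 226 CPM (−5.11 ± 0.15, adjusted p = 9.6e-232) and Acsl6 at 23.6 and 27.1 CPM against 185 and 177 CPM (−2.96 ± 0.12, adjusted p = 8.9e-121). The 3 synthetases that were highest in Astrocyte-like and RGL-like cells were therefore all lower in progenitors than in stem cells, while Acsl4 did not pass (0.11 ± 0.30).

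Acadl, the long-chain dehydrogenase, was at 10.4 and 7.68 CPM against 123 and 141 CPM (−3.94 ± 0.16, adjusted p = 3.3e-130). Acaa2 had 8.31 and 3.29 CPM against 68.5 and 57.6 CPM (−3.50 ± 0.20, adjusted p = 1.1e-63), and Cpt1a 4.67 and 4.03 CPM against 44.3 and 42.0 CPM (−3.41 ± 0.24, adjusted p = 3.4e-44). No progenitor value of these genes came near a stem cell value. Eci1 was at 37.4 and 28.2 CPM against 131 and 122 CPM (−2.06 ± 0.12, adjusted p = 8.3e-60), Etfb at 88.5 and 78.3 CPM against 184 and 196 CPM (−1.30 ± 0.10, adjusted p = 1.3e-36) and Hsd17b4 at 41.8 and 33.7 CPM against 102 and 87.8 CPM (−1.44 ± 0.13, adjusted p = 1e-28). The regulator Ppargc1a was nearly absent from progenitors, with 6 UMIs against 434 in stem cells (−5.88 ± 0.31, adjusted p = 1.7e-75). Ppara had 5 UMIs against 52 (−3.09 ± 0.58, adjusted p = 3e-07) and Pdk4 2 UMIs against 64. The remaining lower members ran from Acadm (−2.07 ± 0.13), Cpt2 (−1.72 ± 0.36) and Hadhb (−1.61 ± 0.12) to Echs1 (−0.64 ± 0.11), Hadha (−0.47 ± 0.11) and Etfa (−0.40 ± 0.12). Between these lay Hadh, Acot2, Decr1, Acadvl, Acsl1, Acaa1a, Etfdh and Mlycd, and none of them overlapped between the classes in CPM. The very small p-values of this comparison come from a spread that edgeR borrowed wholly across genes (infinite prior degrees of freedom). They do not come from the values of a gene in the 2 libraries alone.

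Not all steps were lower. Crat was higher, at 49.3 and 37.7 CPM against 24.5 and 28.2 CPM (0.60 ± 0.16, adjusted p = 0.00039), a call that DESeq2 did not make. Acads had 46.2 and 45.0 CPM against 47.0 and 37.9 CPM (−0.01 ± 0.14, adjusted p = 0.941), and Eci2 132 and 120.0 CPM against 95.7 and 119 CPM (0.12 ± 0.10, adjusted p = 0.288), and neither passed. Slc25a20 also did not pass (−0.39 ± 0.20, adjusted p = 0.073). Across the dehydrogenases the long-chain enzyme was thus lower by the fold given above while the short-chain one did not pass, and the difference between those folds was not tested. Of the 27 calls, DESeq2 kept 20, all lower, and total-count scaling kept all 27. Mitochondrial genes took a median 4.98% and 5.65% of UMIs per nIPC-like cell, and the median cell held 11844 and 9968 UMIs. Astrocyte markers, which stem cells partly share, summed to 394 and 390.1 CPM in nIPC-like against 8238 and 7399 CPM in RGL-like cells, and their part in these differences was not tested.

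**Figure D4:**
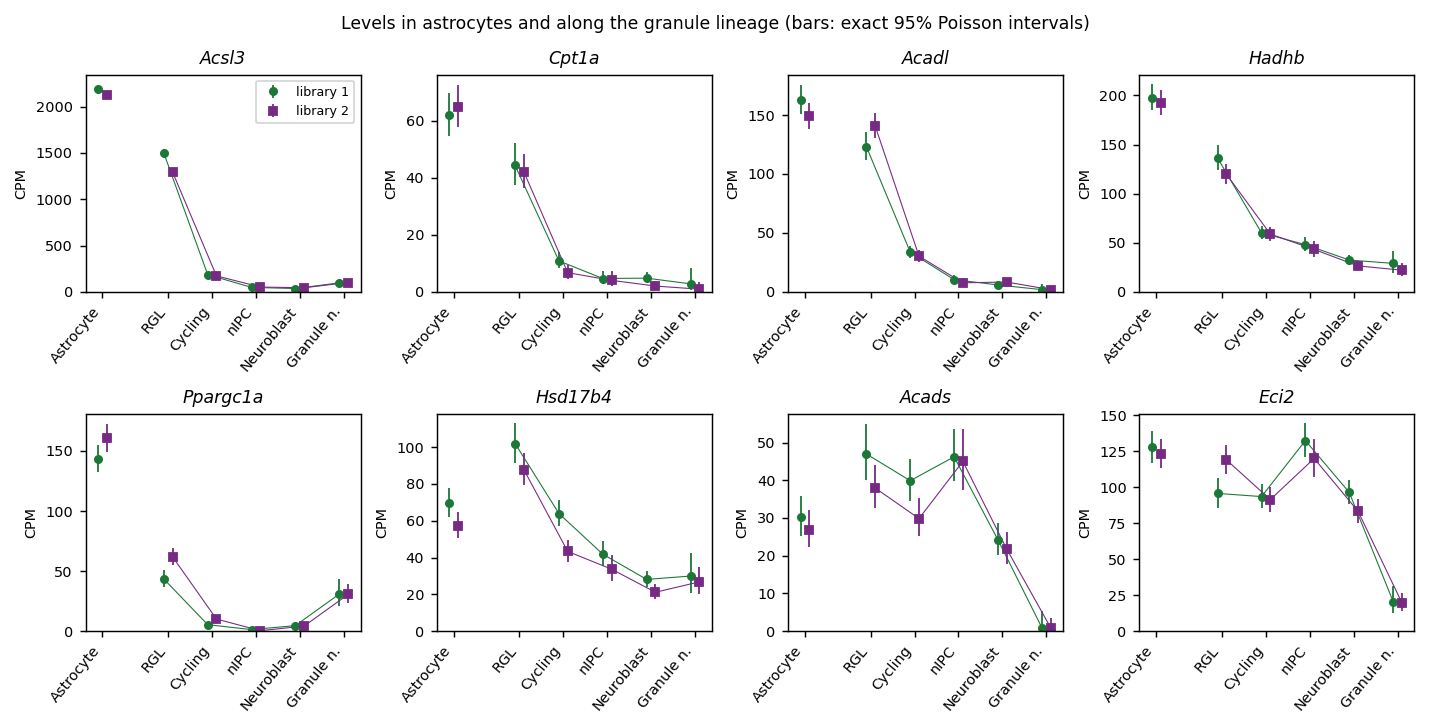
Levels (CPM) of 8 members in Astrocyte-like cells (left in each panel) and in the 5 classes of the granule neuron lineage, joined by lines, with exact 95% Poisson intervals as bars. Acsl3, Cpt1a, Acadl, Hadhb and Ppargc1a drop between RGL-like and nIPC-like cells, while Acads and Eci2 in nIPC-like cells lie near their stem cell level.

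Of the other pathway genes, 33 of 64 tested were lower in nIPC-like cells (51.6%) and 10 higher (15.6%). Of all genes tested, 35.3% were lower and 34.0% higher. Peroxisomal oxidation had 9 lower and 1 higher of 14. The sterol carrier and thiolase gene Scp2 was at 137 and 128 CPM against 483 and 516 CPM (−2.03 ± 0.09, adjusted p = 2.5e-114). Pex7, the import receptor for the peroxisomal thiolase, was at 18.2 and 15.4 CPM against 55.8 and 47.9 CPM (−1.74 ± 0.17), 1 of 6 assembly genes of 15 that were lower, a share of 40% beside the 35.3% of all genes. Pex5 (0.82 ± 0.23) and Pex19 (0.95 ± 0.14) were higher. Of 7 genes of malonyl-CoA and lipid droplets tested, 2 were lower and 2 higher, 28.6% each and below the shares of all genes. Thrsp was at 95.8 and 107 CPM against 1607 and 1362 CPM (−3.99 ± 0.08), and the monoglyceride lipase Mgll at 22.6 and 23.4 CPM against 582 and 529 CPM (−4.72 ± 0.11), while Acaca, a synthase of malonyl-CoA (0.35 ± 0.14), and the droplet coat gene Plin2 (0.48 ± 0.19) were higher. Acot7, a thioesterase known from neurons, was among the 3 other acyl-CoA enzymes that were higher, at 46.5 and 43.9 CPM against 7.98 and 10.1 CPM (2.18 ± 0.20, adjusted p = 1.2e-26). Among regulators 6 were lower, with the smallest adjusted p in Pdk2 (−1.86 ± 0.20) and the mitochondrial deacetylase gene Sirt3 (−1.07 ± 0.17), and 2 higher, Esrra (0.93 ± 0.25) and Prkaa2 (1.34 ± 0.31).

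Cycling-like cells, set against the same RGL-like sums, had 26 members lower, 1 higher, 4 that did not pass and Ehhadh too low to test. Of the 12594 genes tested, 71.1% were called, 35.8% higher and 35.3% lower, with a median log2 fold of −1.01 over the members and 0.00 over all genes. The higher one was Etfa, at 112 and 114 CPM in Cycling-like against 78.9 and 84.3 CPM in RGL-like cells (0.43 ± 0.10, adjusted p = 3e-05; not called by DESeq2), without overlap between the classes. Its partner subunit gene Etfb was lower, at 116 and 116 CPM against 184 and 196 CPM (−0.75 ± 0.09, adjusted p = 2.4e-15).

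Acsl3 stood at 186 and 173 CPM in Cycling-like cells, between its stem cell and nIPC levels, with a log2 fold of −3.00 ± 0.07 (SE, n = 2 libraries per class). Acadl, at 33.7 and 30.3 CPM (−2.08 ± 0.11), Acaa2, at 9.68 and 9.25 CPM (−2.77 ± 0.16), and Cpt1a, at 10.8 and 6.73 CPM (−2.34 ± 0.18), were lower too. Ppargc1a had 5.42 and 10.1 CPM (−2.81 ± 0.18). The thiolase gene Acaa1a had 41.4 and 35.3 CPM against 137 and 124 CPM (−1.80 ± 0.11, adjusted p = 2.3e-48), and Acadvl 18.2 and 18.5 CPM against 60.9 and 55.2 CPM (−1.70 ± 0.14, adjusted p = 5.1e-28). In both genes the Cycling-like values also lay below those of nIPC-like cells, at 71.9 and 68.1 CPM and 30.4 and 25.6 CPM, a difference that was not tested. Acsl6 (−3.08 ± 0.11), Acsbg1 (−3.35 ± 0.11), Eci1 (−1.17 ± 0.10) and Ppara (−3.91 ± 0.59, from 4 UMIs against 52) were lower as well. The remaining lower members lay between Pdk4 (−1.47 ± 0.36) and Acadm (−1.38 ± 0.11) at one end and Acads (−0.33 ± 0.13) and Eci2 (−0.25 ± 0.10) at the other, and the values of Acads overlapped in CPM. Those that did not pass were Cpt2 (−0.45 ± 0.25), Crat (0.02 ± 0.16), Acsl4 (0.03 ± 0.26) and Acsl1 (0.25 ± 0.25).

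DESeq2 kept 18 of the 27 calls, all lower. Cycling-like cells were the deepest of the compared classes, with 16888 and 15571 UMIs in the median cell, and their leading genes were histones and other genes of DNA replication and mitosis. In this comparison 41 of 66 other pathway genes tested were lower (62.1%) and 6 higher (9.09%). Of all genes tested, 35.3% were lower and 35.8% higher. Scp2 (−1.47 ± 0.08), Mgll (−2.62 ± 0.09), Thrsp (−1.08 ± 0.07), Acadsb, for branched short chains (−1.27 ± 0.11), Pex7 (−1.40 ± 0.14), Pex11a (−1.11 ± 0.17), Pdk2 (−1.93 ± 0.18) and Sirt3 (−0.93 ± 0.15) were lower. Oxct1, at 219 and 223 CPM against 109.9 and 98.5 CPM (1.05 ± 0.09, adjusted p = 8.7e-27), and Acat1, the mitochondrial acetoacetyl-CoA thiolase, at 161 and 165 CPM against 94.5 and 89.3 CPM (0.79 ± 0.09, adjusted p = 1.4e-15), were higher.

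Neuroblasts lay lower again than progenitors in several steps of the mitochondrial spiral. In Neuroblast-like cells 13 members were lower than in nIPC-like cells, 3 were higher, 13 did not pass and 3 (Ehhadh, Ppara and Pdk4) were too low to test. Of the 11725 genes tested, 35.3% were called, 18.4% higher and 16.9% lower, and the median log2 fold was −0.36 over the members and 0.00 over all genes. Hadh had 22.9 and 17.5 CPM against 48.3 and 38.1 CPM (−1.06 ± 0.14, adjusted p = 4e-12; SE, n = 2 libraries per class), Acads 24.2 and 21.7 CPM against 46.2 and 45.0 CPM (−0.95 ± 0.14, adjusted p = 8.1e-11), and Etfa 35.4 and 39.8 CPM against 67.0 and 67.0 CPM (−0.81 ± 0.11, adjusted p = 2.8e-12). Hadha, at 59.6 and 49.8 CPM against 95.04 and 86.4 CPM (−0.69 ± 0.10, adjusted p = 1e-11), completed the 4 that DESeq2 also called lower. The classes did not overlap in any of them.

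All 3 members for unsaturated chains were lower: Eci2, at 96.4 and 83.3 CPM against 132 and 120.0 CPM (−0.46 ± 0.08), Eci1 (−0.83 ± 0.16) and Decr1 (−0.79 ± 0.21). Slc25a20 (−0.80 ± 0.22) and Hsd17b4 (−0.58 ± 0.14) were lower too. The synthetase Acsl1 was higher, at 16.7 and 17.5 CPM against 4.15 and 4.76 CPM (1.97 ± 0.28, adjusted p = 2.3e-11), and was the single higher call that DESeq2 shared. Free RNA held 25.8 and 25.04 CPM of it, with estimated free RNA shares of 2.77% and 2.69% in Neuroblast-like cells. Acaa2, at 13.9 and 15.6 CPM against 8.31 and 3.29 CPM (1.29 ± 0.27, adjusted p = 1e-05), and Ppargc1a, with 47 UMIs against 6 (2.31 ± 0.54, adjusted p = 0.00011), were the others. Cpt1a (−0.28 ± 0.39), Acadl (−0.36 ± 0.29) and Acadm (−0.10 ± 0.16), already low in nIPC-like cells, did not pass. Also lower were Hadhb (−0.60 ± 0.13), Etfb (−0.42 ± 0.10), Acsl3 (−0.30 ± 0.12) and Echs1 (−0.26 ± 0.10). The remaining members, Acot2, Acsbg1, Acsl6, Acsl4, Acadvl, Cpt2, Crat, Mlycd, Etfdh and Acaa1a, did not pass, with folds from −0.48 ± 0.26 (Acot2) to 0.22 ± 0.09 (Acaa1a).

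Of 63 other pathway genes tested, 11 were lower (17.5%) and 3 higher (4.76%). Over all genes tested, 16.9% were lower and 18.4% higher, so the share lower was near that of all genes. Abcd2, which nIPC-like cells held above stem cells (1.11 ± 0.14, adjusted p = 5.4e-14), was at 33.3 and 19.1 CPM in Neuroblast-like against 67.3 and 69.5 CPM in nIPC-like cells (−1.32 ± 0.12, adjusted p = 2e-27), and Scp2 at 82.3 and 84.5 CPM against 137 and 128 CPM (−0.64 ± 0.08). Thrsp (−1.26 ± 0.10), Pnpla2 (−0.92 ± 0.21), Acot1 (−1.66 ± 0.22) and Pex19 (−0.60 ± 0.11) were also lower, and Pdk2 (0.77 ± 0.21), Prkaa2, a catalytic subunit of AMP-activated kinase (0.70 ± 0.20), and Pex26 (0.69 ± 0.28) were the 3 that were higher. The median mitochondrial share of UMIs was 4.47% and 5.61% in Neuroblast-like and 4.98% and 5.65% in nIPC-like cells. In Granule neuron-like cells, which entered no test, Decr1 was at 0.936 CPM (95% exact Poisson interval 0.0237 to 5.21) and 0.470 CPM (0.0119 to 2.62), Acadl at 1.87 and 1.88 CPM and Ppargc1a at 30.9 and 30.5 CPM.

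The head-to-head pair whose shared promoter window is printed above differed in its ratio from class to class. Hadhb UMIs per Hadha UMI were 1.54 and 1.66 in Astrocyte-like cells, 1.19 and 1.03 in RGL-like cells, 0.674 and 0.697 in Cycling-like cells, 0.505 and 0.5 in nIPC-like cells and 0.543 and 0.531 in Neuroblast-like cells. The log2 folds of Hadhb and Hadha were 0.94 ± 0.09 and 0.40 ± 0.09 in astrocytes over stem cells, and −1.61 ± 0.12 and −0.47 ± 0.11 in nIPC-like over stem cells. In Neuroblast-like over nIPC-like cells they were −0.60 ± 0.13 and −0.69 ± 0.10. Oligodendrocyte-like cells had 0.488 and 0.485, near the progenitors. Cajal-Retzius-like cells had 1.75 and 1.24, above the astrocytes in library 1 and below them in library 2. The difference between the folds of the pair was not tested, and equal subunits in the protein need not mean equal UMIs.

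**Figure D5:**
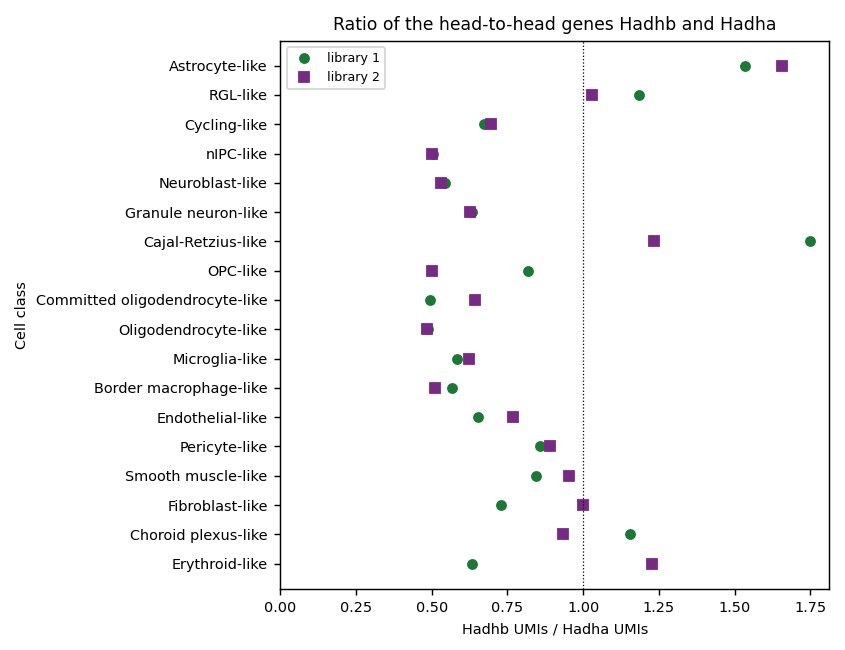
UMIs of Hadhb divided by UMIs of Hadha in 18 cell classes, with 1 point per library and a dotted line at 1. Astrocyte-like cells lie at 1.54 and 1.66, and nIPC-like and Oligodendrocyte-like cells near 0.5.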

How the data were processed

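Cells of the dentate gyrus were dissociated enzymatically after perfusion with saline and profiled with a droplet 3′ assay, per the labels' protocols. The authors deposited whole-number UMI counts without normalization, in 1 table of 13589760 barcodes. The submitters' processing notes name Cell Ranger 4.0.0, the build mm10 and Scanpy 1.7.0. The sources used here do not say whether the libraries were brought to equal depth.

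Barcodes with at least 1000 UMIs, 500 genes and at most 20% mitochondrial UMIs were kept, and 244 and 273 doublets (2.96% and 3.26%, Scrublet) were removed. Cells were clustered with scanpy 1.11.5 on 2988 variable genes without any member or pathway gene (40 principal components, 15 neighbours, resolution 1). The rules for naming clusters from markers were set after seeing the clusters. Barcodes under 100 UMIs gave the free RNA profile. Class sums per library were tested with edgeR 4.0.16 (R 4.3.3, filterByExpr, TMM, 2-sided quasi-likelihood test, library as block, Benjamini-Hochberg over all genes tested, threshold 0.05). Each SE is the log2 fold divided by the root of its F statistic. The 2 libraries leave 1 residual degree of freedom, so spread was mostly borrowed across genes (prior degrees of freedom 18.7 in astrocytes over stem cells, 461 in Cycling-like over stem cells and infinite in both others). With library as block, the spread behind the p-values is how far class differences varied between these libraries, mostly or wholly as borrowed across genes. It is not the spread between mice. Genotype and library are 1 block, and 3 comparisons share the RGL-like sums. CPM are scaled to total counts and log2 folds by TMM. DESeq2 1.42.0, total-count scaling, no low-count filter, no block, a mitochondrial limit of 10%, 1 fit over all classes, each library alone and subtraction of free RNA were tried as alternatives.

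Members, lists and tests were chosen with earlier results of these data known. All members are accounted for. In full are given, per comparison, up to 12 members (the smallest adjusted p of each role, then the largest folds), across classes those highest in the same class in both libraries, and of each other pathway list up to 2 genes, of which some are not reported here. Others named, such as those that did not pass and the endothelial clusters, were chosen after their values were seen. The test was tried on simulated counts first.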

Additional observations from a re-analysis of the deposited data

How the results depend on the processing

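DESeq2 called 11 members higher and 0 lower in astrocytes over stem cells, 0 higher in nIPC-like and in Cycling-like over stem cells (0 and 1 at an unadjusted p under 0.05), and 1 higher and 4 lower in Neuroblast-like over nIPC-like cells. Total-count scaling gave 11 higher and 6 lower in astrocytes and 2 higher in nIPC-like cells. In astrocytes Acadm then stood at −0.0181 and Acaa2 at −0.000961, and Acadm at −0.00285 on total-scaled CPM with free RNA subtracted. Members lower in astrocytes numbered 1 with no replicate block (library), 0 (3 unadjusted) with a mitochondrial limit of 10%, 1 in 1 fit over all classes and 1 with the unnamed shallow cluster of astrocyte score counted, an alternative chosen after seeing the data. Without the block, 23, 27, 25 and 14 of the 24, 27, 27 and 16 calls were kept. Both libraries alone kept the direction of all 94 calls, and neither allows a test. The mean log2 difference of the mitochondrial to peroxisomal ratio was 0.078 (astrocytes), −0.34 (nIPC-like), 0.25 (Cycling-like) and −0.22 (Neuroblast-like) from means of log2(CPM + 1), which weigh members equally. It was 0.59 and −0.52 in astrocytes and Neuroblast-like cells under the mitochondrial limit, and 0.57 in astrocytes without free RNA. With Eci2, Crat and Mlycd as peroxisomal it was 0.26, −0.80, −0.086 and −0.32, and with other peroxisomal genes added 0.24 in astrocytes, 0.12 in nIPC-like and −0.065 in Neuroblast-like cells. The cause was not tested, beyond what each setting changes by construction. One library per genotype, 28 choroid plexus cells in library 1 and few UMIs for Ehhadh, Ppara and Pdk4 limit these results.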

Other observations

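One unnamed cluster held values that enter no comparison above. Its 337 and 229 cells scored best for astrocytes, but none of the astrocyte markers was among its 10 leading genes, which included the metallothioneins Mt1 and Mt2 and the member Acsbg1. Its median depth was 1807 UMIs and its median mitochondrial share 13.9%. Acsbg1 stood at 676 and 668 CPM there, against 431 and 407 CPM in Astrocyte-like cells, and Acadl at 239 and 267 CPM against 163 and 149 CPM. Acsl3, by contrast, stood at 899 and 677 CPM against 2191 and 2122 CPM, and Cpt1a at 37.2 and 48.2 CPM against 62.0 and 64.9 CPM. Members thus lay on both sides of the named astrocytes, and no test was made. Counted as astrocytes, these cells left 24 members higher and 1 lower over stem cells.

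One pathway gene outside the members had high values far from the neurogenic lineage. Abcd2 was as high in Microglia-like cells (119 and 121 CPM) as in Astrocyte-like cells (124 and 119 CPM) and was found at 0.702 and 1.24 CPM in Oligodendrocyte-like cells. It was chosen after its values were seen.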
